A study of Mus musculus with 2 samples.

Results

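Interferon-stimulated genes are the antiviral and antibacterial transcripts that cells switch on in response to interferons, and 43 of them were followed here in regulatory T (Treg) cells with and without the microRNA miR-125a. The members were chosen by gene symbol, as well-known interferon targets of mouse cells, but with earlier results of these data known. They comprise 8 GTPases of the guanylate-binding protein (GBP) and immunity-related GTPase (IRG) families and 35 other interferon-stimulated genes, out of 18193 genes that the array annotation names. CD4+CD25hi cells were sorted from spleens of mice aged 6 to 8 weeks, after magnetic enrichment of CD4 T cells. The control group consisted of wild-type littermates and the other group of miR-125a-deficient mice, with no treatment listed for either. RNA from several mice of a genotype was combined in equal amounts before it was hybridised to 1 Affymetrix mouse GeneChip array, a short-oligonucleotide array, so there were 2 arrays in all. How many mice entered a pool and how the deletion was made are not given in the sources used here. The comparison asks how the Treg transcriptome differs when miR-125a is missing.

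Type I interferons signal through the receptor chains encoded by Ifnar1 and Ifnar2 to the kinases JAK1 and TYK2, which activate transcription factors that bind the interferon-stimulated response element (ISRE) of antiviral genes such as the OAS, IFIT and MX families. Interferon gamma, a cytokine of activated T cells, signals through a separate receptor and acts at gamma-activated sites (GAS), and it is the best known inducer of the GBP and IRG GTPases, which attack the vacuoles of intracellular parasites and bacteria. miR-125a acts by pairing its seed with target transcripts. Its main mature strand is shown here to identify the deleted molecule, with the seed, bases 2 to 8, in capitals, as recorded by RefSeq (GRCm38.p6).
mmu-miR-125a-5p: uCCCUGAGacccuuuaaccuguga

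Values are MAS5 signals on a linear scale, each array having a trimmed mean of 500.0. A gene was read by its probe set of highest mean signal, and 16.3 was added to both signals before the log2 ratio was taken, miR-125a-deficient over wild-type, which understates differences of dim genes. Where a pair of signals is printed, the first is that of the wild-type pool and the second that of the miR-125a-deficient pool. Ratios were counted for genes whose mean signal reached 62.5, the median over probe sets. Of the 43 members, 34 passed this minimum, 6 were measured below it, and 3, Isg15, Oas1g and Ifi44, had no probe set naming them alone. With 1 pooled array per genotype no test between genotypes was possible. The only repeat measurement is that of a gene by several probe sets, and the "probe-set SD" printed with a ratio is the SD this source gives at that gene's signal. It ranged from 0.37 for the dimmest to 0.18 for the brightest of 10 groups of genes, and leaves out variation between mice. In RNA of sorted cells, fewer cells of a type and less RNA per cell cannot be told apart.

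The sorted cells carried T cell and Treg transcripts on both arrays. All 8 measured markers of CD4 and regulatory T cells passed the minimum, and Cd3g, a chain of the T cell receptor complex, was at 11328 and 11391. Foxp3, the master regulator of Treg identity, was at 1631 and 694, a log2 ratio of -1.21. The rest of that list went both ways. Ikzf2 had 0.45, Il2ra, which encodes CD25, 0.27 and Ctla4 0.02, while Tnfrsf18 had -0.08, Cd4 -0.15 and Cd3e -0.41. The list's median was -0.04, with 4 of 8 above 0. Of 7 measured B cell markers only Cd79b passed the minimum, and of 6 measured neutrophil markers 0 did. Of 10 measured markers of macrophages, monocytes and dendritic cells 5 passed, with signals over the 10 that summed to 1053 and 711, while Cd14, Adgre1 and Lyz2 lay below it on average. Of 6 measured markers of plasmacytoid dendritic cells 3 passed, Tcf4 at 603 and 761, Pacsin1 at 330 and 249 and Bst2, itself a member, at 1036 and 1305, and Siglech and Spib were below it.

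The 43 genes did not move as 1 block. Usp18 and Oas1a were at least 2-fold higher without miR-125a, Isg20 was at least 2-fold lower, and the other 31 members past the minimum lay between. These 3 are 8.82% of the members past the minimum, beside 2.26% of all 10583 genes past it (1.08% higher and 1.18% lower). Over the members the median log2 ratio was -0.09, with 21 below 0 and 13 above, beside a median of 0.01 over all genes, 49.0% of which were below 0. After loess scaling, 145 of all genes were at least 2-fold higher and 103 lower, in place of 114 and 125. Ratios larger than 2 probe-set SDs were held by 11 members, 32.4% of the 34, beside 12.4% of all genes. Rsad2 is among these 11 and reached the minimum only through the miR-125a-deficient pool. Because the members were chosen with earlier results of these data known, these shares do not describe an independently chosen set.

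**Figure D1:**
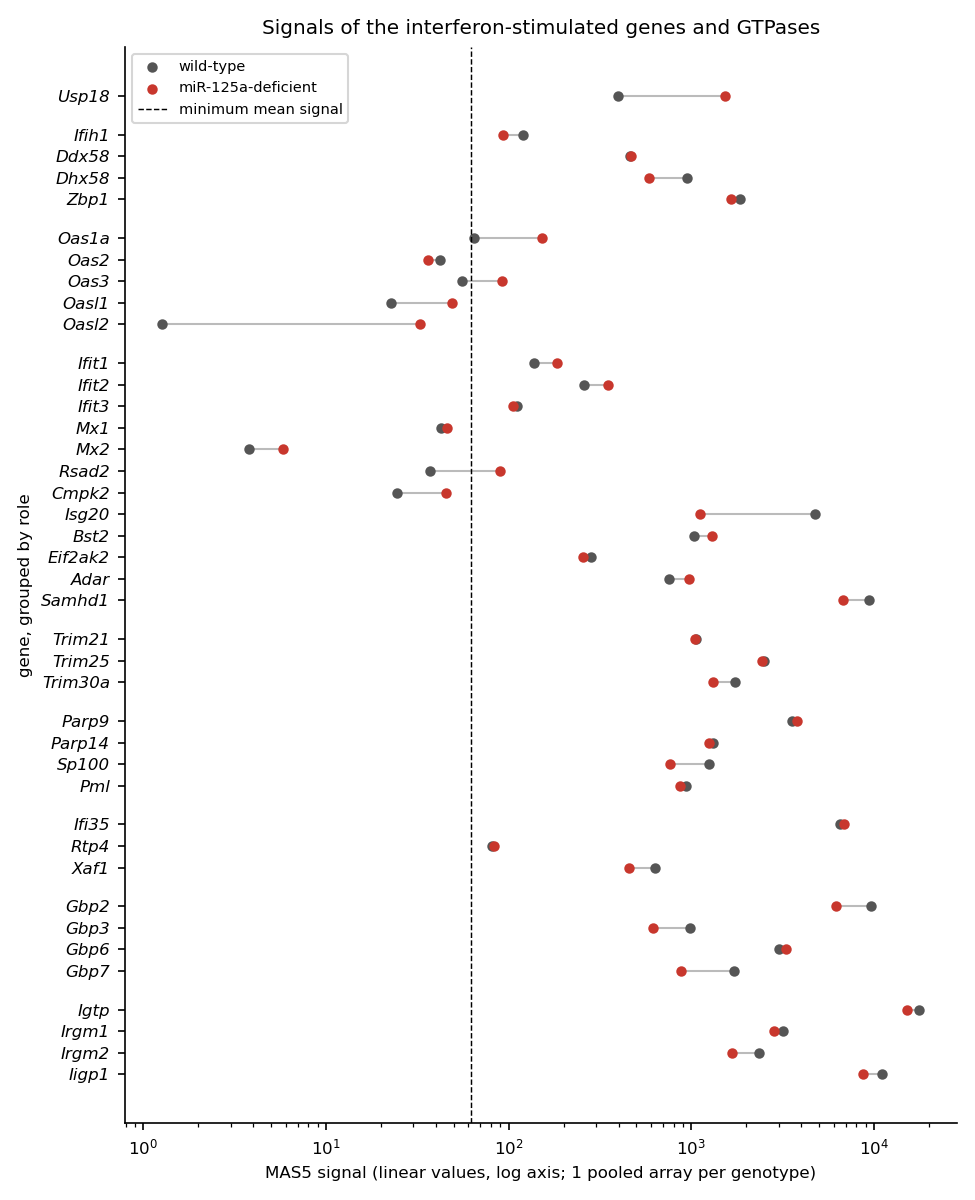
MAS5 signal of each measured member in the wild-type and the miR-125a-deficient pool, on a log axis, grouped by role; 1 pooled array per genotype, so the points have no error bars, and the dashed line marks a signal of 62.5. The widest gaps past this line are those of Usp18, at 396 and 1521, and Isg20, at 4769 and 1111, while most pairs of points lie close together.

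Of the 4 guanylate-binding proteins, 3 were at least 1.5-fold lower in cells lacking miR-125a. Gbp7, which helps to recruit defence complexes to pathogen vacuoles, was at 1701 with miR-125a and 874 without it, a log2 ratio of -0.95 (probe-set SD 0.24) or 1.93-fold lower. Its other probe set, at 1033 and 579, gave -0.82. Gbp2, a GTPase that assembles on pathogen membranes, was at 9647 and 6184, a log2 ratio of -0.64 (probe-set SD 0.18), and its other probe set, at 9534 and 6045, gave -0.66. Gbp3, a close relative of Gbp2, was at 981 and 614, a log2 ratio of -0.66 (probe-set SD 0.26). All of these probe sets were thus lower in the miR-125a-deficient pool by more than 2 probe-set SDs. Gbp6 stood apart from them, at 3010 and 3286 a log2 ratio of 0.13 (probe-set SD 0.22), and its other probe set had -0.20, so its direction was not settled. GBP genes are close in sequence, and a probe set of one may take up transcripts of another.

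Gbp7, Gbp3 and Gbp2 are neighbours on chromosome 3, in that order in the RefSeq gene table, with 0 protein-coding genes between Gbp7 and Gbp3 and 1 between Gbp3 and Gbp2. Gbp6 lies in the GBP cluster of chromosome 5. Gbp8, a GBP gene that was not among the members, was at 2730 and 2690, a log2 ratio of -0.02. The lower signals were therefore seen for the measured genes of the chromosome 3 cluster and not for Gbp6 and Gbp8, a difference that no test could be applied to.

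The immunity-related GTPases were lower by less. Irgm2, a regulator that keeps effector IRG proteins inactive on host membranes, was at 2351 and 1664, a log2 ratio of -0.49 (probe-set SD 0.21). Iigp1, an effector that loads onto parasite vacuoles, was at 11034 and 8726, a log2 ratio of -0.34 (probe-set SD 0.18) and -0.47 from its other probe set. Igtp, another regulator of the family, had a log2 ratio of -0.23 (probe-set SD 0.18), at 17665 and 15073, and Irgm1, which also acts in autophagy, one of -0.16 (probe-set SD 0.22), at 3161 and 2827. All 4 ratios were below 0, but that of Irgm1 was smaller than its probe-set SD. Igtp and Irgm2 lie side by side on chromosome 11, whereas Irgm1 is elsewhere on it and Iigp1 is on chromosome 18. Ifi47, an IRG gene outside the members, was at 8703 and 7788, a log2 ratio of -0.16.

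**Figure D2:**
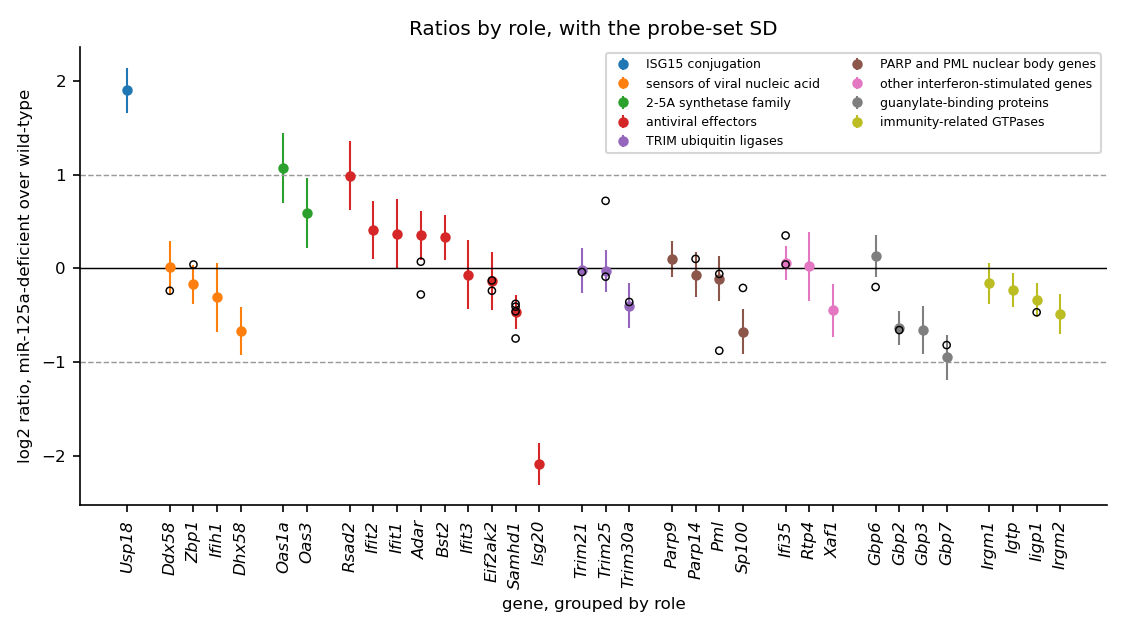
Log2 ratio, miR-125a-deficient over wild-type, of the 34 members past the signal minimum, grouped by role; filled points are the probe set of highest mean signal with 1 probe-set SD as the bar, open circles are the gene's other probe sets past the minimum, and dashed lines mark 2-fold. The GTPases at the right lie below 0 apart from Gbp6, at 0.13, while Usp18, at 1.90, and Isg20, at -2.09, lie far from the rest.

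The promoters of the members were searched for the letters of both interferon motifs. RefSeq windows (GRCm38.p6) from 250 bases before to 50 after the start site were matched by symbol for 32 members, 6 of them GTPases. Those not matched were Gbp6, Iigp1, Usp18, Dhx58, Zbp1, Oas2, Mx1, Mx2, Parp9, Parp14 and Rtp4. The ISRE core, searched as GAAANNGAAA on both strands, occurred in 6 of the 6 GTPase windows and in 13 of 26 windows of the other members, beside 3.99% of all 27025 genes with a window. The GAS core, searched as TTCNNNGAA, which reads the same on both strands, occurred in 3 of 6 and 8 of 26, beside 9.55% of all genes. The letters are a description of the sequence and do not show that a factor binds there. Stretches just before the start site are printed on the gene's strand, with the ISRE letters in capitals; a capital run starting with TTTC is the core on the opposite strand, and 2 overlapping cores merge into a longer run. The first 3 are the neighbouring GBP genes with lower signals, at chr3:142620584-142620633 (+), chr3:142559979-142560034 (+) and chr3:142530263-142530312 (+).
Gbp2: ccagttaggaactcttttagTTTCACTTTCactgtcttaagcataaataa
Gbp3: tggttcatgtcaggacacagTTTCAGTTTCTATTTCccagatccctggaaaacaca
Gbp7: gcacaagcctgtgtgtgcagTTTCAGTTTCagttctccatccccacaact

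The adjacent IRG genes, at chr11:58214893-58214942 (+) for Irgm2 and chr11:58199502-58199551 (+) for Igtp, show nearly identical stretches around the core.
Irgm2: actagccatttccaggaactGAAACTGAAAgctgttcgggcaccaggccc
Igtp: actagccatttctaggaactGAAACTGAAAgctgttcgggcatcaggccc

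An antiviral gene with a higher signal and one without an ISRE core complete the comparison. Oas1a, at chr5:120907526-120907565 (-), carries 2 overlapping ISRE cores, and Isg20, at chr7:78913331-78913379 (+), is shown with its GAS core in capitals, since its windows held no ISRE letters.
Oas1a: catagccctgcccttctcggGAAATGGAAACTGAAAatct
Isg20: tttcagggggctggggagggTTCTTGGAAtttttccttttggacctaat

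The ISRE letters did not sort the members by direction. The 17 members past the minimum with the letters ranged from -0.95 to 1.07 in log2 ratio around a median of -0.14. The 9 without them had a median of -0.11 and a range from -2.09 to 0.41. Gbp7 and Oas1a, both with the core, were thus at opposite ends of the first group.

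Among the other members, Usp18 had the highest ratio. It encodes the protease that removes ISG15 from proteins and blocks signalling at the type I interferon receptor. Its signals were 396 in wild-type cells and 1521 in cells lacking miR-125a, a log2 ratio of 1.90 (probe-set SD 0.24) and the 17th highest of all 10583 genes, from the 1 probe set that names it. Its partner in the ISG15 pathway, Isg15 itself, had no probe set of its own.

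The oligoadenylate synthetases make the second messenger that activates RNase L against viral RNA, and they were dim in both pools. Oas1a, at 64.2 and 153, had a log2 ratio of 1.07 (probe-set SD 0.37). Oas3, at 55.2 and 91.5, had 0.59 (probe-set SD 0.37). Oasl1, at 22.7 and 48.8, Oasl2, at 1.27 and 32.7, and Oas2, at 41.9 and 36.2, stayed below the minimum, so no ratio was counted for them. Of these 5 genes, Oas2 alone had the lower signal without miR-125a. Further genes of the chromosome 5 cluster went opposite ways, with log2 ratios of 0.40 for Oas1b, at 142 and 192, and -0.49 for Oas1c, at 194 and 133.

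Antiviral effectors split by gene. Rsad2, which encodes viperin, a radical SAM enzyme that makes a chain-terminating nucleotide, was at 37.2 and 90.1, a log2 ratio of 0.99 (probe-set SD 0.37). Its mean signal of 63.6 was just past the minimum. Its other probe sets were below it, at 34.6 and 62.5 and at 26.9 and 44.2, and also rank the pool lacking miR-125a higher. Cmpk2, its neighbour on chromosome 12, which supplies the nucleotide substrate, was below the minimum, at 24.5 and 45.6.

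The IFIT proteins bind foreign RNA and block its translation. Ifit2 was at 258 and 348, a log2 ratio of 0.41 (probe-set SD 0.31), Ifit1 at 138 and 183, a ratio of 0.37 (probe-set SD 0.37), and Ifit3 at 111 and 105, a ratio of -0.07 (probe-set SD 0.37). None of the 3 differed by 2 probe-set SDs. The MX GTPases, which trap viral nucleocapsids, were below the minimum, with Mx1 at 42.5 and 45.9 and Mx2 at 3.78 and 5.79. Bst2, encoding tetherin, which holds budding viruses at the cell surface, had a ratio of 0.33 (probe-set SD 0.24), at 1036 and 1305.

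Isg20 and Samhd1 went the other way. Isg20, an exonuclease that degrades RNA, was at 4769 and 1111, a log2 ratio of -2.09 (probe-set SD 0.22) and the 7th lowest of all genes past the minimum. It was read by 1 probe set, of a kind that can match several transcripts of a gene. Samhd1, which depletes the nucleotides that reverse transcription needs, was at 9403 and 6792, a log2 ratio of -0.47 (probe-set SD 0.18). All 5 of its probe sets were lower, the other 4 having ratios from -0.75 to -0.38. The RNA editing enzyme gene Adar had a ratio of 0.35, with its other probe sets at -0.28 and 0.07, and Eif2ak2, encoding the kinase PKR, which halts translation, had -0.14, with its others at -0.24 and -0.13.

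Sensors of viral nucleic acid were lower or little different. Dhx58, encoding LGP2, a regulator of RNA sensing, was at 946 and 589, a log2 ratio of -0.67 (probe-set SD 0.26), and its other probe sets, below the minimum, were also lower, at 56.3 and 38.4 and at 57.7 and 35.4. Ifih1, encoding the sensor MDA5, was at 119 and 93.5, with a ratio of -0.31 (probe-set SD 0.37). Ddx58, encoding RIG-I, was at 461 and 465, with a ratio of 0.01 and one of -0.24 from its other probe set past the minimum. Zbp1, a sensor of Z-form nucleic acid that triggers cell death, was at 1856 and 1650, with ratios of -0.17 and 0.04. Only Dhx58 among the 4 was lower by more than 2 probe-set SDs.

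Of the nuclear body genes, Sp100 was at 1241 and 767, a log2 ratio of -0.68 (probe-set SD 0.24), but its other probe set, at 923 and 793, had -0.21. Pml, the organiser of these bodies, had -0.11, at 939 and 867, and its other probe sets had -0.88 and -0.06. Parp9 and Parp14, ADP-ribosyltransferase genes that lie close together on chromosome 16, had ratios of 0.10 and -0.07. Among the TRIM ubiquitin ligases, Trim30a was at 1741 and 1313, a ratio of -0.40 (probe-set SD 0.24), with -0.36 from its other probe set. Trim21, an antibody receptor inside the cell, and Trim25, an activator of RIG-I, had -0.02 and -0.03, although 1 probe set of Trim25 had 0.72. Xaf1, which promotes apoptosis, was at 629 and 457, a ratio of -0.45 (probe-set SD 0.28). Ifi35 and Rtp4, a chaperone of receptors, had ratios of 0.06 and 0.02.

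**Figure D3:**
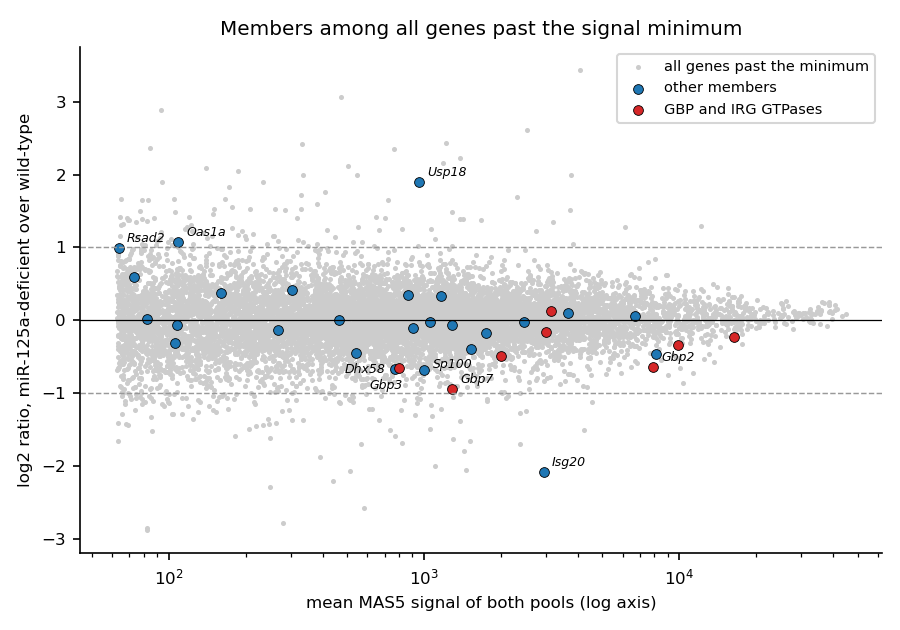
Log2 ratio against the mean MAS5 signal of both pools on a log axis, for all 10583 genes past the minimum in grey, the 8 GTPases in red and the other 26 members past it in blue; dashed lines mark 2-fold. The GTPases lie at moderate to high signal and, apart from Gbp6, below 0, while the higher ratios of Oas1a and Rsad2 lie at the dim end, where the grey cloud is widest.

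Set against each other, the GTPases had the lower ratios. Their median was -0.42, with 7 of 8 below 0 and a range from -0.95 to 0.13. The other 26 members past the minimum had a median of -0.03, with 14 below 0 and a range from -2.09 to 1.90. The difference of medians was -0.39. Of the 8 GTPases 3 were at least 1.5-fold lower, which is 37.5%, beside 5.77% of all genes and 3 of the 26 other members (Dhx58, Isg20 and Sp100). At least 1.5-fold higher were 0 GTPases and 4 other members (Usp18, Oas1a, Rsad2 and Oas3), beside 5.01% of all genes. The interquartile ranges, from -0.65 to -0.21 for the GTPases and from -0.27 to 0.34 for the other members, overlapped.

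The members also differed by signal, which the comparison of groups shares. All 8 GTPases had mean signals above 451, the 75th percentile over probe sets, where the median of all genes was 0.02 and 47.7% of them were below 0. The 17 other members above it had a median of -0.07, with 11 below 0. The 9 other members between the minimum and 451 had a median of 0.37, with 6 above 0, beside -0.01 for all genes there. Of the 6 members below the minimum, 5 had the higher signal in the miR-125a-deficient pool, but at such signals no ratio was counted. The share of all genes below the minimum that were higher was not computed. With no filter, 47.7% of all 18193 genes were below 0. Of the 4 other members at least 1.5-fold higher, Oas1a, Oas3 and Rsad2 thus had mean signals below 451, in the range where MAS5 values vary most, and Usp18 lay above it. Oas3 and Rsad2, which reached the minimum only through the miR-125a-deficient pool, are also among the 9 whose median was 0.37.

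Repeat measurement was available for the 16 members of which 2 or more probe sets passed the minimum. In 10 of them (62.5%) all probe sets went the same way, beside 55.8% of all 5030 such genes. These were Eif2ak2, Samhd1, Trim21, Trim30a, Sp100, Pml, Ifi35, Gbp2, Gbp7 and Iigp1, of which Ifi35 was higher and the others lower. Of the 11 members with ratios beyond 2 probe-set SDs, Samhd1, Sp100, Gbp2 and Gbp7 are among these 10. The other 7, Usp18, Isg20, Oas1a, Rsad2, Dhx58, Gbp3 and Irgm2, had only 1 probe set past the minimum and so no repeat there.

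The pathway that controls these genes was measured on the same arrays. Of the interferon genes listed, Ifng passed the minimum, at 11536 and 14457, a log2 ratio of 0.33. The 6 type I interferon genes measured were below it and showed no common direction, with Ifnb1 at 38.7 and 61.2, Ifna1 at 35.3 and 13.2 and Ifna4 at 19.8 and 2.66. Of 6 measured receptor genes 5 passed the minimum, and all 5 had ratios below 0, with a median of -0.26 and 0 at 2-fold. Ifngr1, the ligand-binding chain for interferon gamma, was at 3838 and 2210, a log2 ratio of -0.79 from 1 probe set. Ifngr2, its partner chain, had -0.04, although its other probe set had -1.22. The type I receptor genes Ifnar1 and Ifnar2 had -0.21 and -0.26, and Il10rb, a chain shared by the receptors for IL-10 and type III interferons, had -0.52. In the pool with the lower GTPase signals, the interferon gamma transcript was thus higher and Ifngr1 lower, while Ifngr2 had -0.04 and -1.22. Whether these values bear on those of the GTPases was not tested.

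Of 17 genes listed for signalling, 0 reached 2-fold, 8 were above 0 and 9 below, and the median was -0.05. The list also holds genes of nucleic acid sensing, such as Mavs and Cgas, which are not downstream of the interferon receptors. Mavs, the mitochondrial adaptor of the RNA sensors, had the lowest ratio, -0.86, at 1555 and 851, with -0.53 from its other probe set. Cgas, the DNA sensor, had the highest, 0.43, at 171 and 236, although its other probe set past the minimum had 1.03. The transcription factors of the pathway differed little, with log2 ratios of 0.20 for Stat2, -0.30 for Irf9, -0.19 for Irf1 and -0.05 for Irf7.

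Other interferon-stimulated genes outside the members centred on 0. Of 48 that passed the minimum, 0 reached 2-fold in either direction, 23 were above 0 and 25 below, and the median was -0.01. The highest ratios were those of Parp12, an ADP-ribosyltransferase, at 0.86 (56.4 and 115), and Lgals3bp, a secreted glycoprotein, at 0.77 (886 and 1525). Parp12 reached the minimum only through the miR-125a-deficient pool. The lowest were those of Ifi203, a DNA-binding protein of the nucleus, at -0.78 (121 and 63.7), and of Epsti1 and Trim12a, both at -0.61. In all 5 pathway lists 0 of 74 genes reached 2-fold, beside 2.26% of all genes.

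**Figure D4:**
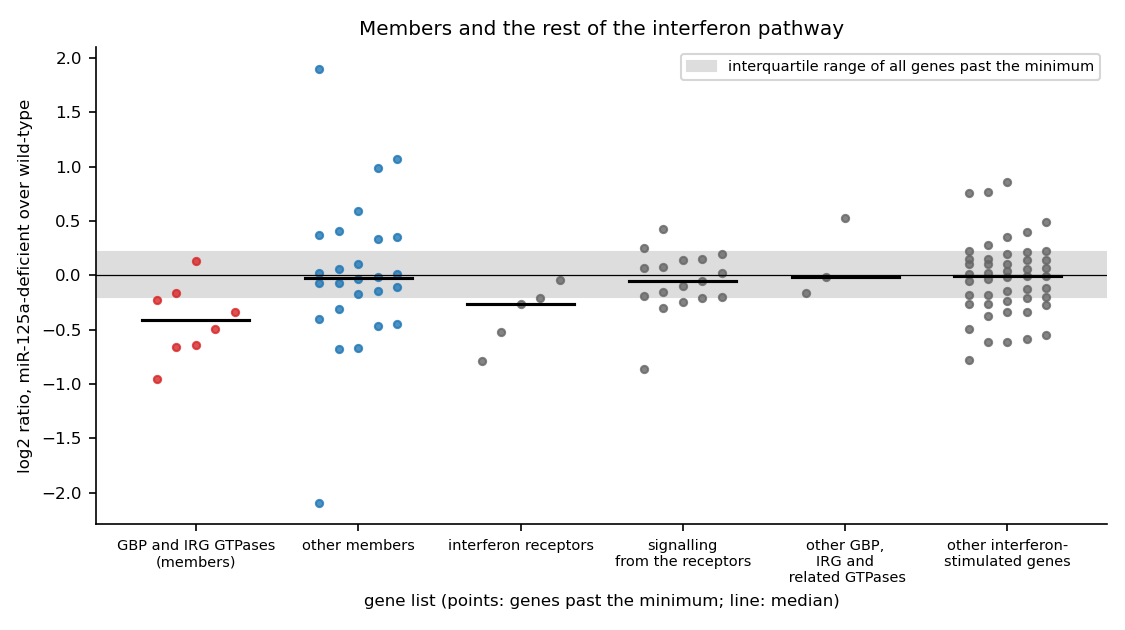
Log2 ratio, miR-125a-deficient over wild-type, of each gene past the minimum in the GTPases, the other members and 4 further lists of the interferon pathway; each point is a gene, the black line is the median of the list, and the grey band is the interquartile range of all genes past the minimum, from -0.20 to 0.22. The medians of the GTPases, at -0.42, and of the receptors, at -0.26, lie below the band, and those of the other lists lie within it.

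Markers of other cells were read beside these differences. The 5 markers of macrophages, monocytes and dendritic cells past the minimum had a median of -0.59 and were all below 0, with Fcer1g, a signalling chain of Fc receptors, at 226 and 103, and Csf1r, a growth factor receptor of macrophages, at 159 and 126. Itgax, at 79.7 and 47.6, reached the minimum only through the wild-type pool. Of those below the minimum, Lyz2, at 30.8 and 61.0, and Xcr1, at 25.6 and 33.9, were higher without miR-125a. Cd14, Adgre1 and Fcgr3 were lower. Of 8 measured markers of CD8 T and NK cells 6 passed and 4 were below 0, with signals over the 8 that summed to 9641 and 6595. Most of that sum is Klrd1, a receptor chain, at 7919 and 5065, while the NK receptor genes Klra7 and Klre1 were higher, with log2 ratios of 0.92 and 0.58. Cd8a, Cd8b1 and Eomes were lower, with -0.54, -0.38 and -0.33, although another probe set of Cd8a had 0.15 and another of Eomes -0.01. Among plasma cell markers past the minimum, Igha was at 1160 and 376, a ratio of -1.58, and the other 3 differed little, with -0.16 for Prdm1, -0.16 for Xbp1 and -0.02 for Mzb1. The part of these cells, and of the lower Foxp3 signal, in the GTPase and Isg20 values was not tested.

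The contrast of the groups kept its sign under the processing choices tried. The GTPase median stayed between -0.47 and -0.38, and Usp18 and Isg20 remained past 2-fold wherever they could be read. Oas1a lay under 2-fold with a pseudocount at the median signal, at 0.76, and Rsad2 lay past 2-fold in 4 of 8 settings, at up to 1.26.

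**Figure D5:**
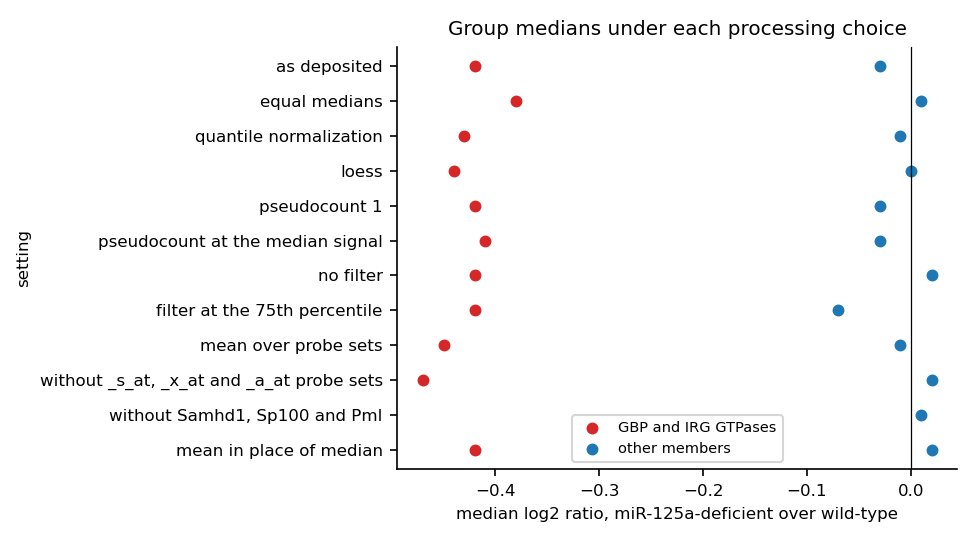
Median log2 ratio, miR-125a-deficient over wild-type, of the GTPases in red and of the other members in blue under each processing choice. The GTPases lie between -0.47 and -0.38 throughout, while the other members lie within 0.07 of 0 on either side.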

How the data were processed

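Treg RNA of 1 wild-type and 1 miR-125a-deficient pool was read on 1 array each. The authors deposited log2 values for 45101 probe sets, made with MAS5, a tool named without a version in the submitters' processing notes. MAS5 subtracts mismatch signal, so dim values vary widely. They were exponentiated to linear signals, whose trimmed mean (2% off each end) was 500.0 on both arrays. Probe sets naming 1 gene (34945) were used, and 932 naming several genes were not. IDs of 34741 were found in the RefSeq table of GRCm38.p6. The pseudocount of 16.3 is the 25th percentile of all signals. The probe-set SD is that of the difference between the 2 brightest probe sets of 5030 genes, divided by the square root of 2. Members and lists were chosen with earlier results of these data known, as was the naming rule: every member, the extremes of each list, and receptors and factors of the pathway. Oas1b, Oas1c, the type I interferon genes and markers other than the extremes were named after their values were seen. Counting ratios beyond 2 probe-set SDs and splitting members by signal were added after values were seen. Ratio functions were tested on simulated data. Python 3.11.15, pandas 2.3.3 and statsmodels 0.14.6 were used. Alternatives were 3 scalings, 2 pseudocounts, 2 filters, 2 probe-set rules, folds of 1.5 and 3, the mean in place of the median, and the 32 other members without Samhd1, Sp100 and Pml.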

Additional observations from a re-analysis of the deposited data

How the results depend on the processing

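Of 293 member ratios recomputed under 9 settings, 289 moved by less than 1 probe-set SD and 0 of the members past 2-fold changed sign. Among smaller ratios, 7 members changed sign under at least 1 setting (Ddx58, Zbp1, Trim21, Trim25, Parp14, Ifi35 and Gbp6). With the mean over probe sets Gbp6 was at -0.04, so that 8 of 8 GTPases were below 0 in place of 7. Equal medians shifted the median of all genes to 0.05. The median of the other members, -0.03 as deposited, was 0.01 with equal medians or without Samhd1, Sp100 and Pml, and 0.02 with no filter, as a mean, or without _s_at, _x_at and _a_at probe sets, so its sign was not settled. Without those probe sets, which drop Isg20, the difference between GTPases and other members was -0.50 and 0 members were at least 2-fold lower. Members at least 2-fold higher numbered 3 with equal medians, quantile normalization, loess, a pseudocount of 1 or no filter, in place of 2 as deposited. Higher members numbered 1 with the pseudocount at the median signal, with the filter at the 75th percentile and at 3-fold. At 1.5-fold 4 were higher and 6 lower. Over all genes, higher and lower counts were 58 and 57 with that pseudocount, 808 and 579 with no filter, 35 and 47 with the stricter filter, 530 and 611 at 1.5-fold and 30 and 20 at 3-fold. The cause of these shifts was not tested, apart from the folds and filters, which change what is counted. No paired analysis was possible because each genotype has 1 array. With 1 array per genotype, no replicate could be left out, and variation between mice is not measured.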
